A study of Mus musculus with 2 samples.

Results

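The 10 genes described here make up the core of the mouse MHC class II pathway, and they were taken by symbol from the 32285 genes of 2 single-cell RNA libraries. H2-Aa, H2-Ab1 and H2-Eb1 encode chains of the classical class II molecules, Cd74 encodes the invariant chain, and Ciita encodes the transactivator of the class II promoters. H2-DMa, H2-DMb1 and H2-DMb2 encode the peptide editor H2-DM, and H2-Oa and H2-Ob encode H2-O. All 10 had a row in both libraries. They held 15607 of the UMIs (counted RNA molecules) of the intact library, or 0.209%, and 92325 of those of the callus library, or 0.27%.

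Both libraries came from 3 littermate mice, labelled male, of the genotype Clec3b.creERT2; Ai14.R26.tdTomato. In this model tamoxifen activates a Cre recombinase placed under control of the Clec3b gene, and the recombined reporter then marks the Clec3b lineage with tdTomato for good. The mice had a stabilized femoral fracture at 6 weeks of age, 2 weeks after tamoxifen, and tissue was taken 3 weeks after surgery. The callus library holds tdTomato-sorted cells of the fracture calluses, and the intact library those of the uninjured femoral shafts with their muscle. Treatment was labelled None and Fracture. Each condition was therefore 1 library of pooled mice, no test between conditions was possible, and every interval below is an exact 95% interval for counting error only.

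After doublets and cells with under 500 genes or over 10% mitochondrial UMIs were removed, 1204 intact and 3291 callus cells remained, with medians of 4914 and 6821 UMIs per cell. Only 1 barcode occurred in both libraries. The libraries went against their label in one respect: among stromal-like cells with at least 5000 UMIs, 97.5% of the 198 intact and 98.6% of the 208 callus cells had a UMI of Xist, the RNA of the inactive X chromosome, and Ddx3y, Eif2s3y, Kdm5d and Uty of the Y chromosome together had 1 UMI. Cell types were gated on single cells with marker lists that held none of the 10 genes, and 94.4% of the cells passed a gate. The names follow those markers. Among them, C1qa, C1qb and C1qc led the macrophage-like cells, and Ms4a1, Ly6d and Ighd the mature B-like cells. Vpreb1 and Igll1 led the pro- and pre-B-like cells, Siglech the plasmacytoid dendritic-like cells, and Cd209a the conventional dendritic-like cells. The sort was for tdTomato, and whether each immune cell carried the label was not analysed here. The paper reports that hematopoietic and endothelial populations lacked meaningful tdTomato expression, and it reads them as artifacts of the flow sort. The supplementary figure it cites for this is described as cells of intact muscle.

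Class II molecules display peptides from endosomes to CD4 T cells and are made mainly by dendritic cells, B cells and macrophages. The invariant chain guides new class II molecules to endosomes and blocks their groove, H2-DM then helps to exchange its remnant for other peptides, and H2-O restrains H2-DM, chiefly in B cells. Ciita does not bind DNA itself but joins factors that sit on the conserved X and Y boxes of class II promoters.

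The promoters themselves are shown first because class II genes are known for these boxes. Of the 10 members, 8 lie within 224 kb of chromosome 17 (34092340 to 34316674, GRCm38), in the order H2-Oa, H2-DMa, H2-DMb2, H2-DMb1, H2-Ob, H2-Ab1, H2-Aa and H2-Eb1, while Ciita lies on chromosome 16 (10480059 to 10528418). RefSeq promoter windows (250 bases before to 50 after a start site, GRCm38.p6) were found for 7 of the members, with 8 windows in all because H2-DMa had a pair. The letters TGATTGG, which hold the CCAAT core of the Y box on the other strand, occurred on either strand in windows of 6 of the 7 genes, all but H2-DMa, against 7.82% of all 32851 windows. The longer form CTGATTGG, which contains it, occurred for 3 genes (H2-Aa, H2-Eb1 and H2-Oa) against 4.10% of all windows. AGNAAC, the core of the X box, occurred on either strand for 5 genes, but also in 48.1% of all windows. For H2-DMa the match lay on the other strand and after the start site, in 1 of its windows. The members are counted by gene and the background by window, so the units differ. These letters were chosen after the promoters had been seen, and a match is a description of the sequence only. In the 75 bases around the Y box printed here, 5′ to 3′ on the strand of the gene, capitals mark TGATTGG and, upstream of it, AGNAAC.
H2-Aa: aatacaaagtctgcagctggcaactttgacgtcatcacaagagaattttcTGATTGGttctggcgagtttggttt
H2-Eb1: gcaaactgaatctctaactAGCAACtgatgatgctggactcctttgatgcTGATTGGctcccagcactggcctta
H2-Oa: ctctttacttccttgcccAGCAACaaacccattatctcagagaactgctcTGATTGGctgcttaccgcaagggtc
H2-Ob: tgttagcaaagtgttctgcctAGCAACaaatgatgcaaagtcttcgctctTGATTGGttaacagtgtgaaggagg
H2-DMb1: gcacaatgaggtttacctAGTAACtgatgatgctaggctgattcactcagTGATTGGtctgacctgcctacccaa
H2-DMb2: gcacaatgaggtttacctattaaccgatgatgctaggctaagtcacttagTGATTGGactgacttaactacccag

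These stretches lie at chr17:34287849-34287923 on the minus strand (H2-Aa) and, on the plus strand, at chr17:34305756-34305830 (H2-Eb1), chr17:34092284-34092358 (H2-Oa), chr17:34238796-34238870 (H2-Ob), chr17:34153078-34153152 (H2-DMb1) and chr17:34145107-34145181 (H2-DMb2). Where both boxes matched, the X core began 29 to 32 bases upstream of TGATTGG. H2-DMb1 and H2-DMb2 have closely related stretches, and AGNAAC is present in the H2-DMb1 stretch and not in that of H2-DMb2 or of H2-Aa. A link between these letters and the levels below was not tested.

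Conventional dendritic-like cells carried the most class II RNA of any type in both libraries. In the 41 callus cells H2-Aa stood at 9228 counts per 1e6 UMIs of the type (CPM), H2-Ab1 at 9624, H2-Eb1 at 8359 and Cd74 at 21526, and the sum of these 4 genes, called the classical sum below, was 48737 CPM (48034 to 49447). The 7 intact cells had a classical sum of 57572 CPM. Callus macrophage-like cells (75 cells) had 21890 CPM (21408 to 22380) and callus mature B-like cells (276 cells) 18987 CPM (18692 to 19285). In the intact library the 19 macrophage-like and 112 mature B-like cells had 16756 and 13062 CPM. The order of those last types was not stable: macrophage-like cells were 0.21 above mature B-like cells on the log2 scale in the callus library, and -0.09 with a stricter gate and -0.02 as a mean over cells.

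**Figure D1:**
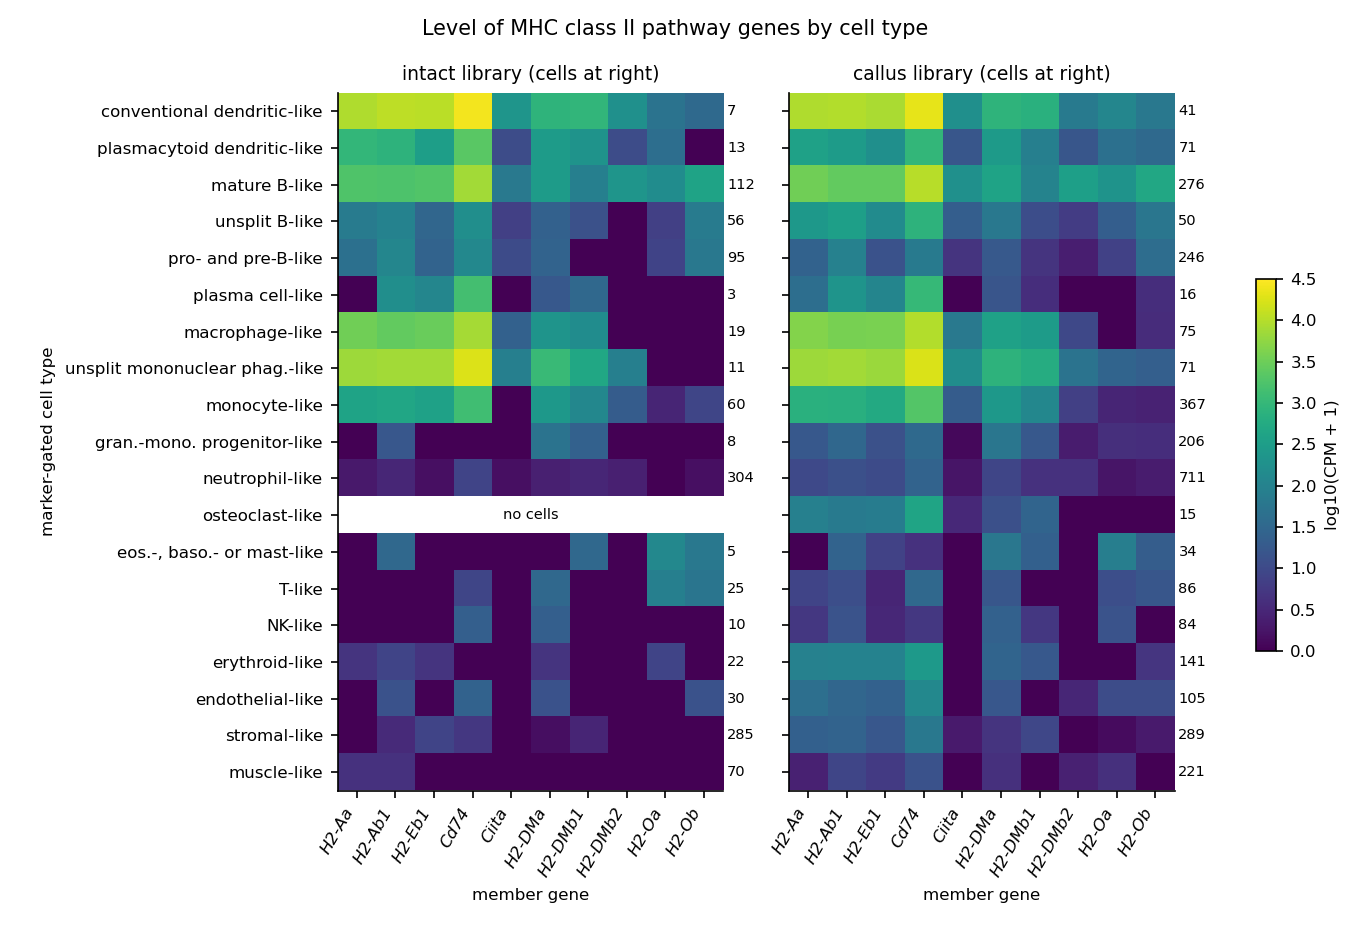
Level of each member gene, as log10(CPM + 1), in each marker-gated cell type (rows) and library (panels), with the number of cells at the right of each row. Conventional dendritic-like, mature B-like and macrophage-like cells are bright for H2-Aa, H2-Ab1, H2-Eb1 and Cd74 in both libraries, while H2-DMb2, H2-Oa and H2-Ob are bright in mature B-like cells and dark in macrophage-like cells.

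Below these types the levels of the callus library dropped stepwise. Cells gated as mononuclear phagocytes without a clear lead of monocyte, macrophage or dendritic markers (unsplit, 71 callus cells) lay between dendritic- and macrophage-like cells at 38612 CPM (38097 to 39133). Monocyte-like cells had 3901 CPM (3837 to 3966) in the callus library (367 cells) and 2568 CPM (2431 to 2711) in the intact library (60 cells). Plasmacytoid dendritic-like cells followed with 1808 CPM (1711 to 1909) in 71 callus cells, an interval that overlapped that of B-lineage cells with no lead of mature or early markers (unsplit B-like, 1540 CPM, 1369 to 1726, 50 cells). In the intact library the order was the reverse, with plasmacytoid dendritic-like cells (13 cells) at 4336 CPM (3931 to 4771), above monocyte-like cells. Plasma cell-like cells (16 callus cells) had 1419 CPM (1295 to 1551). Pro- and pre-B-like cells had 201 CPM (183 to 221) in 246 callus cells and 312 CPM (261 to 370) in 95 intact cells. At the low end, callus neutrophil-like cells (711 cells) had 56.7 CPM (51.4 to 62.3), T-like cells 52.4 CPM (34.8 to 75.7) and NK-like cells 24 CPM (12.0 to 43.0), and the T-like interval overlapped both others. Osteoclast-like cells, found in the callus library only (15 cells), had 662 CPM (588 to 743), of which Cd74 was 64.1%.

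Per cell the pattern was one of unequal mixtures. Each cell was thinned to 1500 UMIs so that depth could not set the count, which left out 47 intact and 134 callus cells. The lowest, median and highest classical sums per cell were 3, 74 and 130 UMIs in the 41 callus conventional dendritic-like cells, and 40 of these cells (97.6%) had at least 10 UMIs. Mature B-like cells had a median of 32 UMIs in the callus library (0 to 59, 273 cells) and 19 in the intact library (0 to 55, 109 cells), with 86.4% and 59.6% of cells at 10 or more. Macrophage-like cells spread more widely, from 0 to 132 UMIs around a median of 18 in the callus library (63 cells), with 60.3% of cells at 10 or more. Most monocyte-like cells had none: the median was 0 UMIs in both libraries, yet the highest callus cell had 124, and 59 of 365 callus cells (16.2%) and 6 of 59 intact cells (10.2%) had at least 10.

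**Figure D2:**
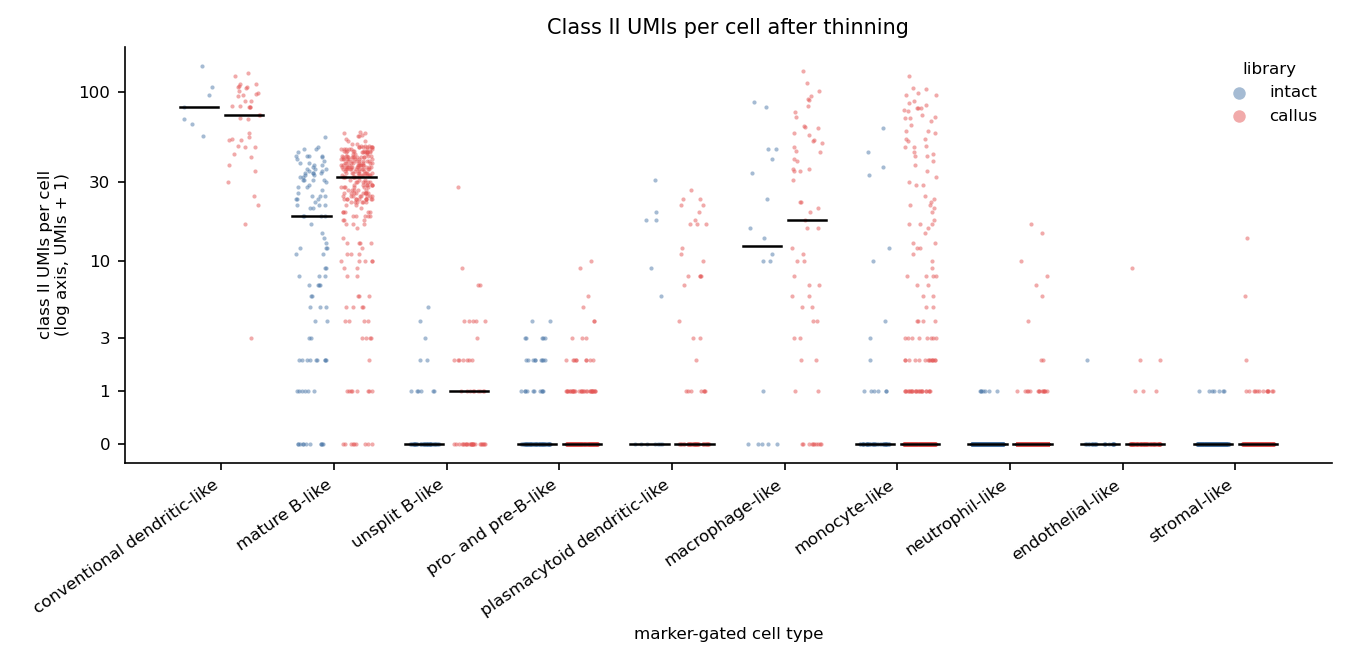
UMIs of H2-Aa, H2-Ab1, H2-Eb1 and Cd74 together in each cell (points, log axis of UMIs + 1) after thinning to 1500 UMIs, by cell type and library, with the median as a black line. Mature B-like medians are 19 (intact) and 32 (callus), while monocyte-like medians are 0 with single callus cells up to 124.

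Monocyte-like cells with high class II RNA were more often those without Ly6c2, the gene of the Ly6C surface antigen that marks classical monocytes. In the callus library 36 of 99 cells without a Ly6c2 UMI after thinning (36.4%, 26.9 to 46.6) had at least 10 class II UMIs, against 23 of 266 cells with one (8.65%, 5.56 to 12.7). The intact values had the same order, with 5 of 23 (21.7%) against 1 of 36 (2.78%), and their intervals overlapped (7.46 to 43.7 and 0.0703 to 14.5). This split was made after the data had been seen. Ly6c2 was also among the markers that set the monocyte gate, so the gate partly set which cells lacked it.

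The 3 chain genes stood in similar proportion in most antigen-presenting types and departed from it in the B-lineage types other than mature B-like cells. H2-Aa, H2-Ab1 and H2-Eb1 took 33.9%, 35.4% and 30.7% of their summed UMIs in callus conventional dendritic-like cells, and 38.2%, 30.8% and 30.9% in callus mature B-like cells. In pro- and pre-B-like cells H2-Ab1 alone took 71.2% of 278 UMIs in the callus library (65.5 to 76.5) and 61.0% of 77 in the intact library (49.2 to 72.0). H2-Eb1 took only 9.71% and 14.3% there. In callus plasma cell-like cells H2-Ab1 took 58.4% of 125 UMIs (49.2 to 67.1) and H2-Aa 11.2% (6.26 to 18.1). Callus B-lineage cells with no lead of mature or early markers had H2-Ab1 at 47.2% of 142 UMIs (38.8 to 55.7). Granulocyte-monocyte progenitor-like cells of the callus library were similar in kind, with H2-Ab1 at 52.0% of 440 UMIs (47.3 to 56.8). Plasmacytoid dendritic-like cells had a low H2-Eb1 share of 20.8% in the callus library (17.6 to 24.2) and 15.8% in the intact library (11.0 to 21.5), and in them H2-Aa took 44.2% and 46.3%. UMIs count captured RNA molecules and were not scaled by length, so these are shares of UMIs.

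The share of Cd74 in the classical sum grew along the B lineage. It was 35.5% in callus pro- and pre-B-like cells (31.0 to 40.2) and 40.8% in intact ones (32.2 to 49.7). It was 54.5% in callus mature B-like cells (53.7 to 55.2) and 58.3% in intact ones (56.8 to 59.8), against 44.2% (43.4 to 44.9) in callus conventional dendritic-like and 43.9% (42.8 to 45.0) in callus macrophage-like cells. Plasma cell-like cells, the antibody-secreting end of the lineage, kept Cd74 at 1053 CPM in 16 callus cells while H2-Aa stood at 41.0 CPM, and Cd74 was 74.2% of their classical sum (70.1 to 78.1). Prdm1, the repressor of Ciita in plasma cells, was at 143 CPM in them. It was among the markers that set their gate, so the gate partly set its presence. Ciita had no UMI in these cells, with an upper limit of 10.8 CPM. A link between the levels of Prdm1 and Ciita was not tested.

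Ciita was far below the classical genes but followed them closely, with correlations of 0.90 to 0.92 over the 27 groups described below. Relative to the classical sum, mature B-like cells had more Ciita than conventional dendritic- and macrophage-like cells in the callus library only. Ciita was at 170 CPM (131 to 217) in conventional dendritic-like cells, 181 CPM (153 to 212) in mature B-like cells and 64.2 CPM (40.7 to 96.3) in macrophage-like cells of the callus library. The intact values were 218, 66.0 and 24 CPM. As a share of Ciita and the classical sum together it was 0.943% (0.799 to 1.11) in callus mature B-like cells, against 0.348% (0.268 to 0.444) in conventional dendritic-like and 0.292% (0.185 to 0.438) in macrophage-like cells. Callus plasmacytoid dendritic-like cells had 0.835% (0.417 to 1.49) and pro- and pre-B-like cells 1.82% (0.79 to 3.56). The intact intervals overlapped, at 0.503% (0.315 to 0.76) in mature B-like, 0.377% (0.201 to 0.643) in conventional dendritic-like and 0.143% (0.0174 to 0.517) in macrophage-like cells. Monocyte-like cells had 19.7 CPM in the callus library (71 UMIs) and no UMI in the intact library, and pro- and pre-B-like cells had 3.74 CPM in the callus library (8 UMIs). Stromal-like cells had 3 Ciita UMIs in 289 callus cells and none in 285 intact cells, and endothelial-like cells had none in either library.

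H2-DMa, the alpha chain of the peptide editor, was above each single classical gene in granulocyte-monocyte progenitor-like cells of the callus library. Its level was 837 CPM in conventional dendritic-like, 405 CPM in mature B-like, 371 CPM in macrophage-like and 250 CPM (234 to 267) in monocyte-like cells of the callus library. Granulocyte-monocyte progenitor-like cells (206 callus cells) had 57.9 CPM of H2-DMa (52.5 to 63.6) against 33.3 CPM of Cd74 and 0.274 CPM of Ciita. Cd74 was the highest classical gene there, with 243 of the 683 UMIs of the classical sum. Callus neutrophil-like cells had 7.60 CPM of H2-DMa (5.76 to 9.85) and a classical sum of 56.7 CPM, of which 7 of the 711 cells held 72.2%. Without those 7 cells the classical sum was 15.9 CPM (13.1 to 19.0). The order of H2-DMa and the single classical genes in neutrophil-like cells is therefore not read from these values.

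The beta chains of H2-DM divided mature B-like cells from dendritic-, macrophage- and monocyte-like cells. Mature B-like cells used mostly H2-DMb2, at 346 CPM in the callus library and 225 CPM in the intact library, against 104 and 87 CPM of H2-DMb1. Macrophage-like cells of the callus library had 293 CPM of H2-DMb1 and 8.37 CPM of H2-DMb2 (3 UMIs). H2-DMb2 thus made up 76.9% (72.3 to 81.0) and 72.1% (62.5 to 80.5) of both beta-chain genes in callus and intact mature B-like cells, 2.78% (0.577 to 7.90) in callus macrophage-like cells, 4.78% (3.02 to 7.15) and 13.9% (6.87 to 24.1) in callus and intact monocyte-like cells, and 8.53% (5.60 to 12.3) in callus conventional dendritic-like cells. In callus neutrophil-like cells, where both genes together had 51 UMIs, the share was 51.0% (36.6 to 65.2). The other B-lineage types had under 20 UMIs of both genes together, too few for a share. Callus pro- and pre-B-like cells had 8 UMIs of H2-DMb1 and 3 of H2-DMb2, so the division is shown for mature B-like cells only. Under the other cell filters, gates and doublet settings the mature B-like share stayed between 75.4% and 76.9% and the macrophage-like share between 1.54% and 2.83%. The transcripts of these neighbouring genes share sequence: 27.2% of the 1355 windows of 50 bases in H2-DMb1 transcripts also occur in H2-DMb2, and this was the only pair of the 45 pairs of members that shared any. Reads from such windows cannot be assigned to either gene alone. Within the last 500 bases of the transcripts, where a 3′ library is read, 92 of 451 windows of H2-DMb1 (20.4%) also occur in H2-DMb2, and none of the 457 windows of H2-DMb2 occur in H2-DMb1. A loss of such reads would thus fall on H2-DMb1 and raise the H2-DMb2 share, and its size was not tested.

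H2-Oa and H2-Ob were both highest in mature B-like cells of the callus library, and H2-Ob was also present in the early B lineage. H2-Ob stood at 504 CPM (457 to 555) in callus and 399 CPM (334 to 473) in intact mature B-like cells, and H2-Oa at 205 CPM (175 to 238) and 156 CPM (116 to 205). In pro- and pre-B-like cells H2-Ob was at 38.8 CPM (30.9 to 48.1) in the callus library and 62.4 CPM (40.7 to 91.4) in the intact library, while H2-DMb2 was at 1.40 CPM and without a UMI. H2-Oa was at 6.54 CPM (3.58 to 11.0) in callus pro- and pre-B-like cells, below conventional dendritic-like cells at 114 CPM (82.7 to 154) and plasmacytoid dendritic-like cells at 45.6 CPM (31.4 to 64.1). The share of both H2-O genes among H2-O and H2-DM UMIs was 67.4% (59.1 to 74.9) in callus pro- and pre-B-like cells and 45.3% (42.6 to 48.1) in callus mature B-like cells. It was 9.79% (7.65 to 12.3) in callus conventional dendritic-like, 0.946% (0.505 to 1.61) in callus monocyte-like and 0.413% (0.0105 to 2.28) in callus macrophage-like cells. The intact values were 72.5% in pro- and pre-B-like and 47.8% in mature B-like cells.

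**Figure D3:**
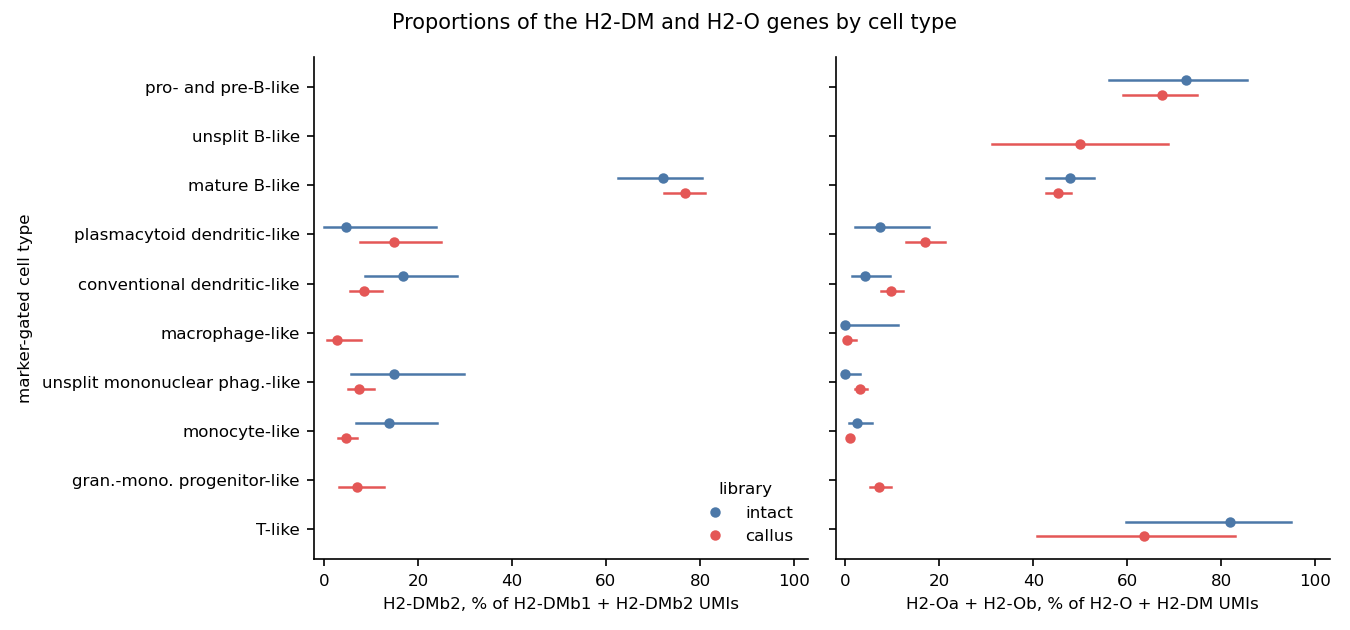
Share of H2-DMb2 among UMIs of both H2-DMb genes (left) and share of H2-Oa and H2-Ob among all H2-O and H2-DM UMIs (right), in percent, by cell type and library, with exact 95% intervals as lines; groups with under 20 UMIs have no point, and neutrophil-like and some rarer types are not drawn. Mature B-like cells lie at 72.1% and 76.9% in the left panel while dendritic-, macrophage- and monocyte-like cells lie at 16.9% or less, and in the right panel B-lineage and T-like cells lie at 45.3% or more.

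H2-Oa also stood out in types with almost no classical class II RNA. Eosinophil-, basophil- or mast-like cells, led by Prss34 and Mcpt8 of basophils, had 82.9 CPM of H2-Oa (53.7 to 122) in 34 callus cells against 3.32 CPM of Cd74 and no UMI of H2-Aa. T-like cells had 86.6 CPM of H2-Oa (43.3 to 155) in 25 intact cells and 11.2 CPM (4.12 to 24.4) in 86 callus cells, with Cd74 at 7.88 and 31.8 CPM. In neutrophil-like cells of the callus library H2-Oa was at 0.8 CPM (0.294 to 1.74). These values rest on few UMIs, from 6 to 25 per group.

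Across the B lineage every member was higher in mature B-like than in pro- and pre-B-like cells. In the callus library all 10 members were at least 2-fold higher (12.3% of 8795 genes with 20 UMIs or more were) and none was at least 2-fold lower (21.8% were). In the intact library all 10 were again at least 2-fold higher (9.13% of 5159 genes) and none lower (13.3%). The ratios were not alike: in the callus library they were 247 for H2-DMb2 (83.6 to 1204, from 3 UMIs in the early cells), 212 for H2-Eb1 (145 to 323), 145 for Cd74 (123 to 171), 133 for H2-Aa (102 to 179), 48.4 for Ciita (23.9 to 114), 28.8 for H2-Ab1 (24.9 to 33.5) and 13 for H2-Ob (10.3 to 16.7). In the callus library Ciita, H2-DMb1, H2-DMb2 and H2-Oa, and in the intact library also H2-Aa, H2-Eb1 and H2-DMa, reached 20 UMIs only through the mature cells, so the filter partly set these counts. H2-Ob had the lowest ratio in both libraries, at 6.40 (4.18 to 10.2) in the intact one.

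Among the myeloid types of the callus library, 6 of 8 members with enough UMIs were at least 2-fold higher in macrophage-like than in monocyte-like cells (13.9% of 9040 genes were) and none was at least 2-fold lower (16.0%). The classical sum differed 5.61-fold (5.46 to 5.77), H2-DMb1 2.41-fold and H2-DMa 1.48-fold (1.23 to 1.78). Conventional dendritic-like cells had all 10 members at least 2-fold above macrophage-like cells (9.49% of 4880 genes) and none below (16.3%), with a ratio of 2.23 (2.17 to 2.29) for the classical sum. Against macrophage-like cells, mature B-like cells were at least 2-fold higher for 4 of 10 members, Ciita, H2-DMb2, H2-Oa and H2-Ob (22.5% of 6615 genes), and lower for 1, H2-DMb1 (18.4%). H2-DMb2, H2-Oa and H2-Ob reached 20 UMIs in both comparisons only through the dendritic- or B-like cells. H2-DMb2 differed 41.3-fold (14 to 202) between mature B-like and macrophage-like cells. H2-Oa differed 24.5-fold with its macrophage-like count of 0 set to 3 UMIs, with a lower limit of 19.7.

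Callus and intact cells of one type were then set side by side to ask whether class II RNA differed between the libraries. Both libraries were taken 3 weeks after surgery, and the intact one came from uninjured shafts with their muscle. Injury and dissected tissue therefore cannot be told apart in these ratios. In mature B-like cells the classical sum was 1.45-fold higher in the callus library (1.41 to 1.5), with H2-Aa at 1.83 (1.67 to 2.00) and Cd74 at 1.36 (1.30 to 1.42). Ciita was the 1 of 10 members at least 2-fold higher, at 2.74-fold (1.75 to 4.5; 151 against 22 UMIs), where 5.60% of 6184 genes were, and none was at least 2-fold lower (4.09%). The mature B-like cells of the libraries differed in Ighd, the IgD heavy chain of naive mature B cells: 220 of 276 callus cells (79.7%, 74.5 to 84.3) and 54 of 112 intact cells (48.2%, 38.7 to 57.9) had an Ighd UMI. Among cells with an Ighd UMI the classical sum differed 1.07-fold (1.03 to 1.12), H2-Eb1 0.923-fold (0.838 to 1.02) and Ciita 1.89-fold (1.16 to 3.28). Among cells without one the classical sum differed 1.39-fold (1.30 to 1.5) and H2-Aa 2.34-fold (1.84 to 2.99). This split was also made after the data had been seen, and Ighd was among the markers that set the gate.

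In B-lineage cells with no lead of mature or early markers, 4 of the 5 members with enough UMIs, H2-Aa, H2-Ab1, H2-Eb1 and Cd74, were at least 2-fold higher in the callus library (7.34% of 2998 genes) and none lower (4.54%), with a classical sum of 1540 against 367 CPM. H2-Aa, H2-Ab1 and H2-Eb1 reached 20 UMIs only through the callus cells, so the filter partly set this count, and 43 of the 106 cells of this type lay near a limit of the gate. Pro- and pre-B-like cells went the other way, with 201 against 312 CPM. There, none of the 6 members with enough UMIs was at least 2-fold higher (10.1% of 8377 genes) and 1, H2-Eb1, was lower at 0.478-fold (6.63% of genes), with an interval that included 1 (0.230 to 1.07). Light-chain RNA moved with this difference: Igkc was at 676 CPM in callus and 2187 CPM in intact pro- and pre-B-like cells and Iglc2 at 62.6 and 652 CPM, 2 of 5 B-cell transcripts at least 2-fold lower, and their part in it was not tested. The direction in pro- and pre-B-like cells did not hold: the log2 ratio of the classical sum was -0.63, and it was 0.52 with types taken from clusters, 0.13 with the stricter gate and -0.07 as a mean over cells.

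Monocyte-like cells of the callus library had 1.52-fold the classical sum of intact ones (1.44 to 1.61), while H2-DMa was level, at 250 and 249 CPM, and so was H2-DMb1, at 122 CPM in each. Of 8 members with enough UMIs, 1, Ciita, was at least 2-fold higher (10.1% of 8930 genes were). Its ratio was 3.36 with the intact count of 0 set to 3 UMIs, with a lower limit of 2.66. Ciita reached 20 UMIs only through the callus cells, so the filter partly set this count. H2-DMb2 was lower at 0.312-fold (0.142 to 0.738, 22 against 10 UMIs), where 2.74% of genes were at least 2-fold lower. B-cell transcripts were lower in callus monocyte-like cells too, with Igkc at 12.0 against 180 CPM and Cd79a at 0.834 against 45.1 CPM, and their part in the H2-DMb2 value was not tested. The size of the classical difference depended on the cells taken as monocytes, with log2 ratios of 0.60 as gated, 0.87 with the stricter gate, 1.05 as a mean over cells and 2.15 with types from clusters.

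**Figure D4:**
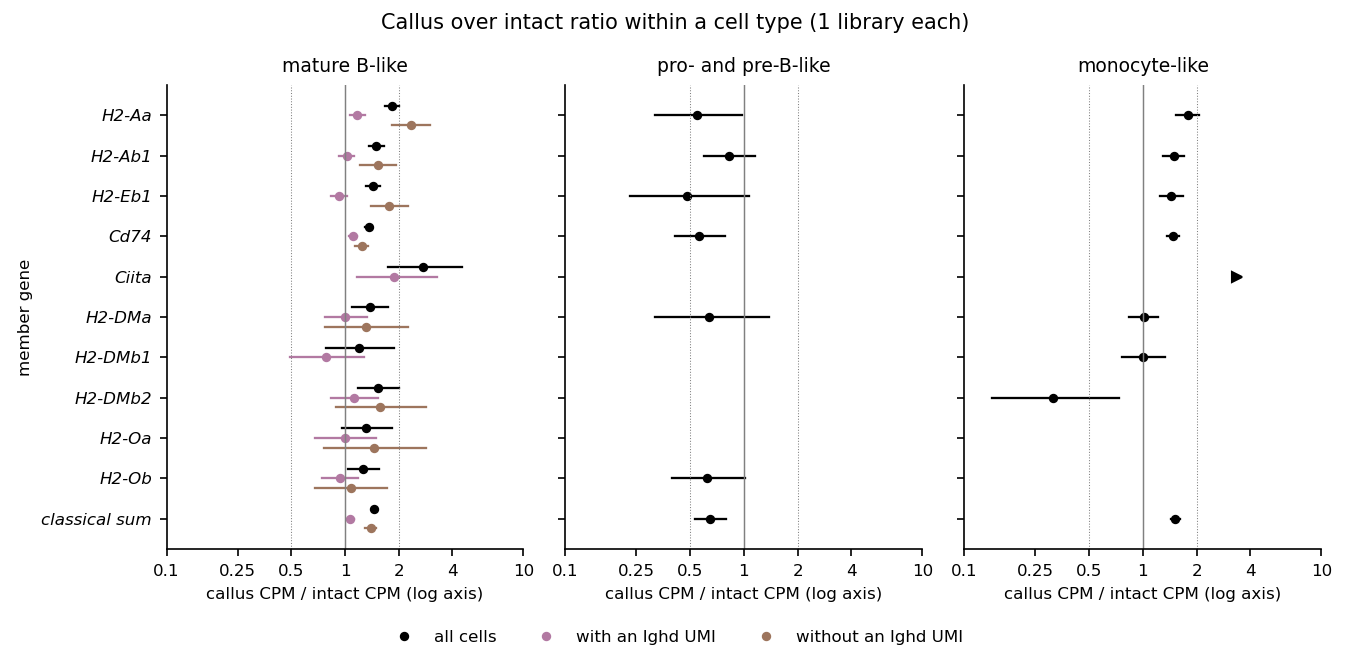
Ratio of callus to intact CPM (log axis) for each member whose summed groups held 20 UMIs or more and for the classical sum, within mature B-like, pro- and pre-B-like and monocyte-like cells, with 95% counting intervals as lines and dotted lines at 0.5 and 2. In mature B-like cells the classical sum is at 1.45 over all cells and 1.07 among cells with an Ighd UMI. The arrowhead for Ciita in monocyte-like cells is the ratio of 3.36 with the intact count of 0 set to 3 UMIs.

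Stromal-like cells, the lineage that the reporter was built to mark, had little class II RNA. The classical sum was 14.3 CPM (9.60 to 20.6) in 285 intact cells and 128 CPM (115 to 143) in 289 callus cells. This gate joined cells with stromal, osteoblast or bone marrow stromal markers. The paper found its osteoblast and bone marrow stromal clusters in the callus only, so the libraries may differ in the mixture compared here. The part of that mixture in the values was not tested. All 5 members with enough UMIs, H2-Aa, H2-Ab1, H2-Eb1, Cd74 and H2-DMb1, were at least 2-fold higher in the callus library (8.25% of 10711 genes) and none lower (4.85%). Each reached 20 UMIs only through the callus cells, where it was high, so the filter partly set this count and nothing is read from it. These UMIs lay in very few cells: 3 of the 289 callus cells held 283 of the 349 UMIs (81.1%). All 3 also had UMIs of macrophage, dendritic and monocyte markers, and 2 of them of B-lineage markers. The first 3 lists stood at 744, 513 and 3177 CPM in intact stromal-like cells, where no cell held more than 2 class II UMIs. Their presence therefore does not set these 3 cells apart, and the share of other cells with such UMIs was not counted. Among stromal-like cells without any UMI of Ptprc, Lyz2 or Cd79a, genes of leukocytes, myeloid cells and B cells, the classical sum was 21.5 CPM (15.6 to 29.0) in 230 callus cells and 15.3 CPM (10.3 to 22.0) in 267 intact cells, with overlapping intervals. With the highest doublet scores removed the log2 ratio was 0.69 in place of 3.16, but the doublet caller marked too few cells to show that it worked.

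Across the whole stromal-like group the B-lineage markers moved with the class II genes, with 5 of 10 detected at a summed 8.40 CPM in the intact library and 10 of 10 at 70.6 CPM in the callus library. Lyz2, a lysozyme gene of myeloid cells, was at 8.40 and 66.9 CPM, and C1qa was at 0 and 4.05 CPM. All 4 B-cell transcripts with enough UMIs, Igkc, Ighm, Cd79a and Cd79b, were at least 2-fold higher in the callus library, where 8.25% of all genes were. Igkc was at 21.3 against 10.4 CPM and Ighm at 31.3 against 14.8 CPM. Cd79a was at 10.7 CPM against no UMI. Both Cd79a and Cd79b reached the UMI minimum only through the callus cells, so the filter partly set this count. The macrophage list went from 5 of 13 genes detected at 744 CPM to 12 of 13 at 586 CPM. The dendritic list went from 8 of 16 at 513 CPM to 11 of 16 at 215 CPM, and the monocyte list from 5 of 11 at 3177 CPM to 10 of 11 at 3421 CPM. Their part in the ratio over all stromal-like cells was not tested beyond the restricted cells above. After thinning, 2.92% of callus and 1.11% of intact stromal-like cells had a Cd74 UMI. The same share was 1.84% and 1.98% in neutrophil-like cells, a type that should lack the gene, and 96.3% and 89.9% in mature B-like cells.

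Endothelial-like cells gave a like picture. Their classical sum was 223 CPM (183 to 268) in 105 callus cells and 37.5 CPM (7.74 to 110) in 30 intact cells, and 2 callus cells held 90 of the 112 UMIs (80.4%). None of the 10 B-lineage markers had a UMI in the intact cells, where 3 UMIs would be 37.5 CPM, and they stood at 177 CPM in the callus cells. Igkc was at 25 CPM and Ighm at 12.5 CPM in the intact cells. Without cells that had a UMI of Ptprc, Lyz2 or Cd79a the values were 38.6 CPM (21.6 to 63.7) in 88 callus and 29.9 CPM (3.62 to 108) in 27 intact cells. In callus erythroid-like cells 4 of 141 cells held 816 of 846 class II UMIs (96.5%), and in callus neutrophil-like cells 7 of 711 held 307 of 425 (72.2%). In muscle-like cells no cell had more than 2 UMIs, with 26.7 CPM in the callus and 6.83 CPM in the intact library.

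Other genes of the pathway, taken from lists of the pathway, were compared within the callus library between mature B-like and macrophage-like cells. Among the endosomal proteases and the thiol reductase that prepare peptides and trim the invariant chain, 5 of 7 were at least 2-fold lower in mature B-like cells (18.4% of all genes tested were) and none higher (22.5% were), with a median log2 ratio of -4.58 against 0.15 over all genes tested. Ctsb stood at 41.9 against 4324 CPM, Ctss, the protease that trims the invariant chain in these cells, at 362 against 2867 CPM, and the reductase Ifi30 at 444 against 581 CPM. Of 7 factors that act at the Ciita promoters, 2 (Pax5 and Irf4) were at least 2-fold higher and 2 (Spi1 and Prdm1) lower, and of 6 factors that bind class II promoters with Ciita, 1 (Rfx5) was higher and 1 (Nfyc) lower. Both lists were near the shares of 22.5% and 18.4% over all genes, so these counts are no result about the factors. H2-Eb2, a further class II gene, was at 61.1 CPM in mature B-like cells and without a UMI in macrophage-like cells.

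Several of these lists also differed between B-cell stages of the callus library, where the median log2 ratio over all genes was -0.19. Cd83 and March1, which oppose each other at the ubiquitin-dependent removal of class II from the surface, were both at least 2-fold higher in mature B-like than in pro- and pre-B-like cells, with Cd83 at 358 against 0.934 CPM and March1 at 192 CPM against no UMI. Over all genes 12.3% were at least 2-fold higher and 21.8% lower in this comparison. Of 4 co-stimulatory genes tested, 3 (Cd86, Cd40 and Icosl) were higher and 1 (Cd24a) lower. Cd83, March1, Cd86 and Cd40 reached the UMI minimum only through the mature cells, so the filter partly set these counts. Of the class I comparison list only Tap2 and Tapbp, 2 of 7, were at least 2-fold higher, with a median log2 ratio of 0.68, and B2m, the light chain of class I, was at 1051 against 906 CPM. Between macrophage-like and monocyte-like cells 13.9% of all genes were at least 2-fold higher in macrophage-like cells and 16.0% lower. None of the 4 genes of the interferon-gamma receptor list, which also holds the kinases Jak1 and Jak2, differed 2-fold, too few genes for a result. Of the 7 proteases and reductase genes, 5 were at least 2-fold higher in macrophage-like cells, with a median log2 ratio of 1.87.

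The genes whose levels followed a member most closely differed by role. Over 27 groups of at least 20 cells (type and library), the Pearson correlation of log2(CPM + 10) with H2-Aa was highest for Ly86 (0.926), Cd83 (0.925) and Pld4 (0.917) among 12049 other genes. For Ciita it was highest for Cd83 (0.874), Fgd2 (0.861) and Slamf9 (0.841), and for H2-DMb2 for Icosl (0.917), Il4i1 (0.902) and Fcer2a (0.881). H2-Ob was followed most closely by Ighd (0.909), Cxcr5 (0.874) and Slc9a7 (0.872). The groups share 2 libraries, and Fcer2a and Ighd were among the markers that set the gates, so these values are a description only. Within the members, H2-Aa correlated at 0.92 with Ciita, 0.45 with H2-Oa and 0.50 with H2-Ob, and H2-Oa with H2-Ob at 0.80.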

How the data were processed

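Per the labels, cells were sorted for tdTomato and sequenced with the 10x 3′ kit V3. The authors made the deposited count matrices (UMIs per gene and cell, not normalized) with Cell Ranger, version 6.0.0 per the file headers, against mm10, and the annotation release is not given in the sources used here. The matrices held 12112002 UMIs in 1872 barcodes (intact) and 36714322 UMIs in 3987 barcodes (callus), and the filter removed 665 and 692 barcodes. Scrublet in scanpy 1.11.5 marked 7 of 4502 cells (0.155%), too few to show that it worked.

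Each cell was scored by the mean of its 4 highest scaled markers per type and gated from a score of 0.25 with a lead of 0.15 over the next type, a scoring rule set after the data had been seen, and 327 cells lay within 0.05 of a limit. UMIs were summed per type and library and given as CPM, not scaled by gene length. Exact Poisson, Clopper-Pearson and conditional ratio intervals (95%, scipy 1.17.1) cover counting error only, and a count of 0 was set to 3 UMIs for ratios. Genes were compared where the summed groups held 20 UMIs or more, and the ratio steps were tested on simulated data. For shares and counts per cell, cells were thinned to 1500 UMIs. Python 3.11.15, numpy 2.4.6 and matplotlib 3.10.9 were used. Promoters are from RefSeq (GRCm38.p6) and positions from GENCODE on GRCm38, which held 32158 of the 32285 gene identifiers (99.6%).

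The members and lists were chosen with earlier results of these data known. All members were named, up to 3 genes of a list by summed UMIs, and the 3 genes most correlated with a member. Some results of the gene lists and correlations are not reported here. Genes behind counts of 5 or fewer were also named after their values had been seen. Alternatives were other cell filters, cluster-based or stricter types, doublet removal, averaging, scaling, count minimum, thinning and positivity.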

Additional observations from a re-analysis of the deposited data

Results flagged for a closer look

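The H2-Eb1 ratio lay on opposite sides of 1 in different types. Its callus over intact ratio was 4.88 in B-lineage cells with no lead of mature or early markers (28 against 5 UMIs, 1.86 to 16.2) and 2.08 in stromal-like cells (42 against 15 UMIs, 1.13 to 4.05), but 0.478 in pro- and pre-B-like cells (27 against 11 UMIs, 0.230 to 1.07, an interval that includes 1). In callus stromal-like cells 3 cells held 81.1% of the class II UMIs. With 1 library per condition the difference between these types was not tested.

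Class II RNA was also present in the barcodes that the cell filter removed. The classical sum was 18.1 CPM (14.4 to 22.4) in 665 intact barcodes, of which 1 barcode held 24 of 83 UMIs (28.9%). It was 106 CPM (93.7 to 120) in 692 callus barcodes, of which 7 barcodes held 134 of 258 UMIs (51.9%).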

How the results depend on the processing

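Of the values that answer a comparison, 61 alternatives stayed within the counting interval or 1.5 times the count and 38 did not. Of 231 alternatives for single members 55 moved, and 8 of the 231 had another sign. The cause was not tested for any of them. Relative to callus mature B-like cells (log2, classical sum), conventional dendritic-like cells were at 1.36, and at 1.23 with types from clusters, 1.42 with the stricter gate, 1.29 as a mean over cells and 1.51 without cells holding B-cell markers. Macrophage-like cells were at 0.21, and at 0.33 with a harder cell filter on genes and mitochondrial UMIs, 0.34 with clusters, -0.09 with the stricter gate and -0.02 as a mean. Monocyte-like cells were at -2.28, and in that order at -2.43, -2.35, -2.87 and -1.82, and at -2.24 without cells holding B-cell markers.

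The log2 ratio of callus over intact was 0.54 in mature B-like cells, and 0.69 with the harder cell filter, 0.34 with clusters and 0.47 with the stricter gate. In pro- and pre-B-like cells it was -0.63, and 0.52 with clusters, 0.13 with the stricter gate and -0.07 as a mean. In monocyte-like cells it was 0.60, and 0.42 with the harder filter, 2.15 with clusters, 0.87 with the stricter gate and 1.05 as a mean. In stromal-like cells it was 3.16, and 0.69 without the highest doublet scores and 2.51 as a mean. Alternatives chosen after the data had been seen gave 0.10 with and 0.48 without an Ighd UMI in mature B-like cells, and 0.49 in stromal-like cells without any UMI of Ptprc, Lyz2 and Cd79a.

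Members at least 2-fold apart in mature B-like cells numbered 1, and 2 with the harder filter and 0 with an Ighd UMI. In monocyte-like cells they numbered 2, and 7 with clusters, 4 as a mean and 1 from 50 UMIs. The share of callus monocyte-like cells with a Cd74 UMI was 31.0%, and 50.1% unthinned and 23.6% from 2 UMIs. For stromal-like cells it was 2.92%, and 1.14% without the highest doublet scores, 8.65% unthinned and 0.73% from 2 UMIs. No paired analysis was possible because each condition has 1 library. Conventional dendritic-like, macrophage-like and T-like groups of the intact library held 7, 19 and 25 cells, which limits every value from them.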

Other observations

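The 253 cells that passed no gate also held class II RNA, with a classical sum of 548 CPM in the 69 intact cells (489 to 613) and 805 CPM in the 184 callus cells (774 to 837). After thinning, 16 of 178 such callus cells (8.99%) had at least 10 class II UMIs, and the highest had 76.

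In intact stromal-like cells H2-Eb1 took 15 of the 20 chain UMIs (75%, 50.9 to 91.3) and H2-Aa none, while in callus stromal-like cells H2-Eb1 took 42 of 176 (23.9%, 17.8 to 30.9).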
